A study of Mus musculus with 9 samples.

Results

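A set of 10 genes that mark the oligodendrocyte precursor and its differentiating descendants were followed in mouse brain after intracerebral haemorrhage (ICH), a bleed into the brain tissue. They were Pdgfra, Cspg4, Olig1, Olig2, Sox10, Gpr17, Bmp4, Enpp6, Bcas1 and Myrf. All were taken by gene symbol from a deposited table of 35112 genes. All 10 were in the table, and all 10 were among the 21900 genes with enough counts to be tested.

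The brains came from wild-type C57BL/6 mice, in 3 groups of 3 animals, and their polyadenylated RNA was sequenced. The groups were ICH+P7C3-A20 (haemorrhage with the neuroprotective compound P7C3-A20), ICH (haemorrhage alone) and sham (control treatment). All brains were collected 72 hours after treatment. The labels give neither the dose of P7C3-A20, nor the brain region, nor the age of the mice. Libraries are named by group and replicate, as in ICH 2.

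Oligodendrocyte precursors are dividing glial cells spread through the adult brain, and they give rise to the cells that wrap axons in myelin. They divide in response to platelet-derived growth factor, which they bind through the receptor Pdgfra, and after injury they proliferate and gather around the lesion. On differentiation they lose Pdgfra and Cspg4, pass through a short premyelinating stage that Gpr17, Bmp4, Enpp6 and Bcas1 mark, and switch on Myrf, the transcription factor that starts the myelin programme. Olig1, Olig2 and Sox10 are transcription factors present throughout the lineage.

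All 10 genes were measured well above the detection floor. The lowest estimated count of any of them in any library was 95, and libraries totalled 51537047 to 63324728 estimated counts. A count of 3, taken as the floor for counting error alone, equals 0.0455 to 0.0625 CPM, the depth-scaled count, in a library. Across genes, which are not independent replicates, libraries of the same group correlated at 0.981 to 0.990 and libraries of different groups at 0.951 to 0.983. The 8 neuron markers, which include the GABA synthesis genes Gad1 and Gad2 and the glutamate transporter gene Slc17a7, were present in every library, with a lowest count of 3132.

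The genes sit on 10 different loci of the GRCm38 assembly, and Olig1 and Olig2 are neighbours. Olig2 (16:91225457-91228677, plus strand) ends 41094 bases before Olig1 (16:91269772-91271933, plus strand) begins. Pdgfra lies at 5:75152292-75198215 and Cspg4 at 9:56865033-56899870, both on the plus strand. Gpr17 (18:31942997-31949636, minus strand) lies wholly inside Lims2 on the other strand, whose counts came to 14.4% of those of Gpr17. The antisense transcript Gm15222 had counts that came to 8.79% of those of Bmp4. The libraries were stranded, but no source used here states the strand setting of the counting, so reads of these overlapping pairs may not have been told apart.

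Levels of different genes are compared here in FPKM, which corrects fragment numbers for the length of the transcript and the depth of the library. In ICH+P7C3-A20 brains the order was Bcas1 (57.6 ± 22.3 FPKM, SD, n = 3), Olig1 (54.8 ± 16.5), Sox10 (19.7 ± 4.51), Gpr17 (15.6 ± 3.70), Olig2 (13.5 ± 3.98), Myrf (9.32 ± 2.99), Pdgfra (5.42 ± 0.526), Enpp6 (2.65 ± 1.11), Cspg4 (1.84 ± 0.363) and Bmp4 (1.49 ± 0.161 FPKM). The ranges of neighbours in that order overlapped except between Olig1 and Sox10 and between Pdgfra and Enpp6. Compared within each library, the upper gene of a pair was higher in 3 of 3 libraries for all pairs but Bcas1 with Olig1 and Enpp6 with Cspg4, which changed places in ICH+P7C3-A20 1. The order was the same in ICH brains, with Bcas1 at 99.2 ± 6.01 FPKM at the top and Bmp4, at 1.05 to 1.43 FPKM, at the bottom, and there Gpr17 and Olig2 were the only neighbours whose ranges overlapped, with Gpr17 the higher in each library. In sham brains Myrf (10.8 ± 1.37 FPKM) came before Olig2 (10.1 ± 0.930 FPKM), and the rest kept their places between Bcas1 (60.4 ± 6.03 FPKM) and Bmp4 (1.03 ± 0.436 FPKM). The sham ranges overlapped for Bcas1 and Olig1, Gpr17 and Myrf, Myrf and Olig2, and Cspg4 and Bmp4, and of these pairs Cspg4 and Bmp4 changed places in 1 library, sham 2.

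Promoter sequences are shown for Cspg4, which had the largest change after haemorrhage, for Olig2 and Pdgfra, which also rose, and for Enpp6, which did not pass the test. RefSeq promoters of the GRCm38.p6 assembly matched 5 of the 10 genes by symbol, and Bmp4 is the fifth. Each run gives the 250 bases before the RefSeq start on the plus strand, 5′ to 3′. For Cspg4 and Olig2 the RefSeq start lies downstream of the gene start given above, so the end of each window is inside the gene. Capitals mark CANNTG, the letters read by basic helix-loop-helix factors such as Olig2, and ACAAAG or ACAATG, letters read by Sox factors, on either strand.
Cspg4 (chr9:56864854-56865103): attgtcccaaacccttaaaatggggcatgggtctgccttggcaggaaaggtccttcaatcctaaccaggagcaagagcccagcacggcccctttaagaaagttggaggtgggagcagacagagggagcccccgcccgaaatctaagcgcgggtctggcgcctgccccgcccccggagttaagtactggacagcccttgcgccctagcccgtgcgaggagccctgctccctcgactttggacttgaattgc
Olig2 (chr16:91225300-91225549): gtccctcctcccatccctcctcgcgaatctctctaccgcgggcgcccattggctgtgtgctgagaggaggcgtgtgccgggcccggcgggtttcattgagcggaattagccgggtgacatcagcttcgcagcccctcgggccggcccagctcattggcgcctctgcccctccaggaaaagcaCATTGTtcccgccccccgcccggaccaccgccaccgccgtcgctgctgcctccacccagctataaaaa
Pdgfra (chr5:75152001-75152250): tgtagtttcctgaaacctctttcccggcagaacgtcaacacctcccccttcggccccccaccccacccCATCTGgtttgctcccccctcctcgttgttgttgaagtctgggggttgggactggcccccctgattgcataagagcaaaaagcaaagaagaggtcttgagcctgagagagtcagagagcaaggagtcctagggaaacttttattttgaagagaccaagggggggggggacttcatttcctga
Enpp6 (chr8:46986637-46986886): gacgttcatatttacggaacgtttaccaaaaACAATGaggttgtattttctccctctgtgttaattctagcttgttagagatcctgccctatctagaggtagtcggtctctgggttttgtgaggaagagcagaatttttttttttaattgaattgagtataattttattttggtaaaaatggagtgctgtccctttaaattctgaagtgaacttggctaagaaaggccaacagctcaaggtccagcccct

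Of these windows, Pdgfra held a CANNTG match at -182 from the RefSeq start, Olig2 an ACAATG match on the reverse strand at -68, and Enpp6 an ACAATG match at -219. The Olig2 match lay inside the gene, past the gene start given above. Cspg4 held none of the 3 motifs. Among all 32851 promoter windows of the same length, 66.2% held CANNTG, 16.5% ACAAAG and 10.7% ACAATG. The G and C share was 66.8% for Olig2, 60.4% for Cspg4, 54.4% for Pdgfra and 38.4% for Enpp6, against a median of 52.4% over all windows. A match describes letters, not binding.

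ICH was compared with sham to ask how the haemorrhage altered these genes. At 72 hours 6 of the 10 rose: Pdgfra, Cspg4, Olig1, Olig2, Gpr17 and Bcas1, and none fell. Over all 21900 tested genes 26.0% were called, 15.6% higher and 10.4% lower, at a Benjamini-Hochberg adjusted p under 0.05 in edgeR's quasi-likelihood test. In 7 of the 10 every ICH library lay above every sham library, as in 23.3% of all tested genes. The median log2 change of the 10 was 0.60, against 0.00 over all tested genes. In bulk tissue, more cells of a type and more RNA per cell cannot be told apart.

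Cspg4, the NG2 proteoglycan of precursor cells and pericytes, had the largest log2 change of the 10 in ICH over sham. It measured 22.5, 27.2 and 29.6 CPM in ICH+P7C3-A20 libraries 1, 2 and 3, 40.5, 45.9 and 43.6 CPM in ICH, and 20.6, 18.8 and 20.4 CPM in sham. The 3 groups did not overlap, with ICH highest and sham lowest. In ICH it was 2.18-fold higher than in sham, a log2 change of 1.12 ± 0.12 (edgeR adjusted p = 8.51e-05; the error is the change divided by the root of edgeR's F).

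Pdgfra, the receptor through which precursors take up the growth signal, measured 70.3, 63.5 and 63.3 CPM in ICH+P7C3-A20, 78.9, 78.9 and 74.3 CPM in ICH, and 57.6, 50.7 and 53.6 CPM in sham. Here too the groups did not overlap, and ICH+P7C3-A20 lay between ICH and sham. It rose in ICH over sham, at a log2 change of 0.52 ± 0.09 (edgeR adjusted p = 0.00183).

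**Figure D1:**
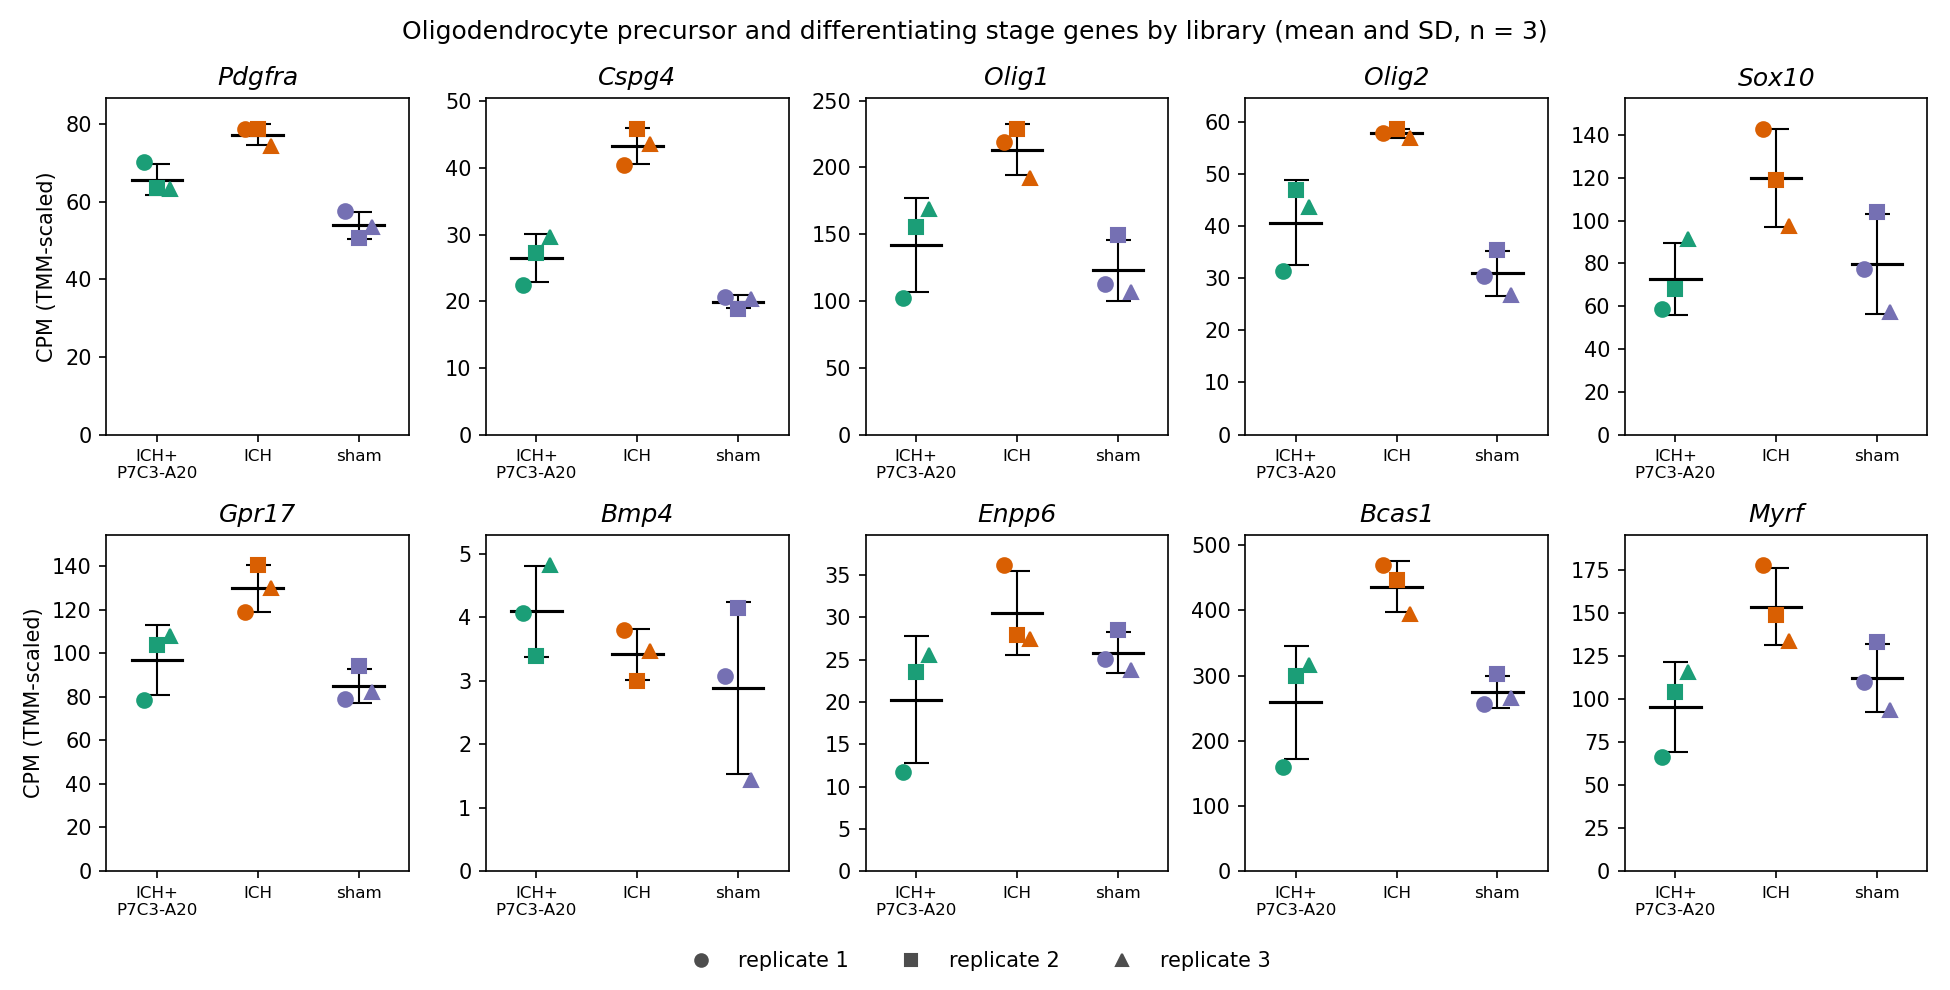
TMM-scaled CPM of each of the 10 genes by library, with ICH+P7C3-A20, ICH and sham from left to right. Points are libraries, long bars are means and whiskers are SD (n = 3 each). Cspg4 and Pdgfra show 3 separate groups. ICH+P7C3-A20 1 is the lowest library for Olig1 (102 CPM), Gpr17 (78.6 CPM), Enpp6 (11.7 CPM), Bcas1 (159.7 CPM) and Myrf (66.1 CPM).

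The lineage factor Olig2, which is required for precursors to form, measured 31.4, 46.9 and 43.6 CPM in ICH+P7C3-A20, 57.8, 58.7 and 56.8 CPM in ICH, and 30.5, 35.5 and 26.8 CPM in sham. The ICH libraries lay above all others and close together, with a coefficient of variation of 1.63%. Olig2 rose in ICH over sham by a log2 change of 0.90 ± 0.15 (edgeR adjusted p = 0.00172). Its neighbour Olig1 measured 102, 155 and 169 CPM in ICH+P7C3-A20, 219, 229 and 192 CPM in ICH, and 113, 149 and 107 CPM in sham. Again the ICH libraries were the highest, and ICH+P7C3-A20 1 was below all sham libraries. Olig1 rose in ICH over sham, with a log2 change of 0.79 ± 0.19 (edgeR adjusted p = 0.0103).

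Sox10, which activates myelin genes, had a coefficient of variation of 29.7% among the sham animals. It measured 58.6, 68.2 and 91.5 CPM in ICH+P7C3-A20, 143, 119 and 97.3 CPM in ICH, and 77.4, 104 and 57.3 CPM in sham. Sham 2 exceeded ICH 3, so the ICH and sham groups overlapped. The log2 change in ICH over sham was 0.59 ± 0.23 (edgeR adjusted p = 0.0882), and without sham 2 it was 0.83 with an edgeR adjusted p of 0.0270.

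Gpr17, an orphan receptor of the precursor committed to differentiate, measured 78.6, 104 and 108 CPM in ICH+P7C3-A20, 119, 140.5 and 130.2 CPM in ICH, and 78.8, 94.0 and 82.2 CPM in sham. The ICH libraries stood above both other groups, which overlapped. Its log2 change in ICH over sham, a rise, was 0.61 ± 0.13 (edgeR adjusted p = 0.00657). Bcas1, a marker of the premyelinating cell, measured 159.7, 299.8 and 317 CPM in ICH+P7C3-A20, 469.6, 446 and 394 CPM in ICH, and 256, 303 and 265 CPM in sham. ICH was above both other groups in every library. Its log2 change in ICH over sham was 0.67 ± 0.22 (edgeR adjusted p = 0.0447). That call was lost with any 1 of the sham or ICH libraries left out, at log2 changes of 0.61 to 0.75 and edgeR adjusted p-values up to 0.135. It was also lost with upper-quartile scaling, without the filter on low counts and in all 3 limma fits on FPKM (adjusted p up to 0.179). The calls of Olig1 and Gpr17 were lost in the limma fit on log2(FPKM + 1) without a filter (adjusted p = 0.0526 for Olig1 and 0.0607 for Gpr17).

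The other 3 genes of differentiation did not pass the test in ICH over sham. Myrf measured 66.1, 104 and 116 CPM in ICH+P7C3-A20, 178, 149 and 134 CPM in ICH, and 109.7, 133 and 93.7 CPM in sham. Every ICH value was above every sham value, with 134 CPM in ICH 3 against 133 CPM in sham 2 at the closest, and the log2 change was 0.45 ± 0.20 (edgeR adjusted p = 0.137). Enpp6, a choline phosphodiesterase of newly forming oligodendrocytes, measured 11.7, 23.5 and 25.6 CPM in ICH+P7C3-A20, 36.2, 27.9 and 27.4 CPM in ICH, and 25.1, 28.5 and 23.8 CPM in sham. Its ICH and sham values overlapped, with a log2 change of 0.24 ± 0.25, a 95% interval of -0.31 to 0.78 and an edgeR adjusted p of 0.544.

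Bmp4, a secreted growth factor made by committed precursors, was the least abundant. It measured 4.06, 3.39 and 4.82 CPM in ICH+P7C3-A20, 3.79, 2.99 and 3.47 CPM in ICH, and 3.07, 4.14 and 1.44 CPM in sham. The groups overlapped, and the ICH values lay within the sham range. The log2 change of 0.25 ± 0.34 had a 95% interval of -0.52 to 1.01 (edgeR adjusted p = 0.668), and it was -0.08 without sham 3.

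**Figure D2:**
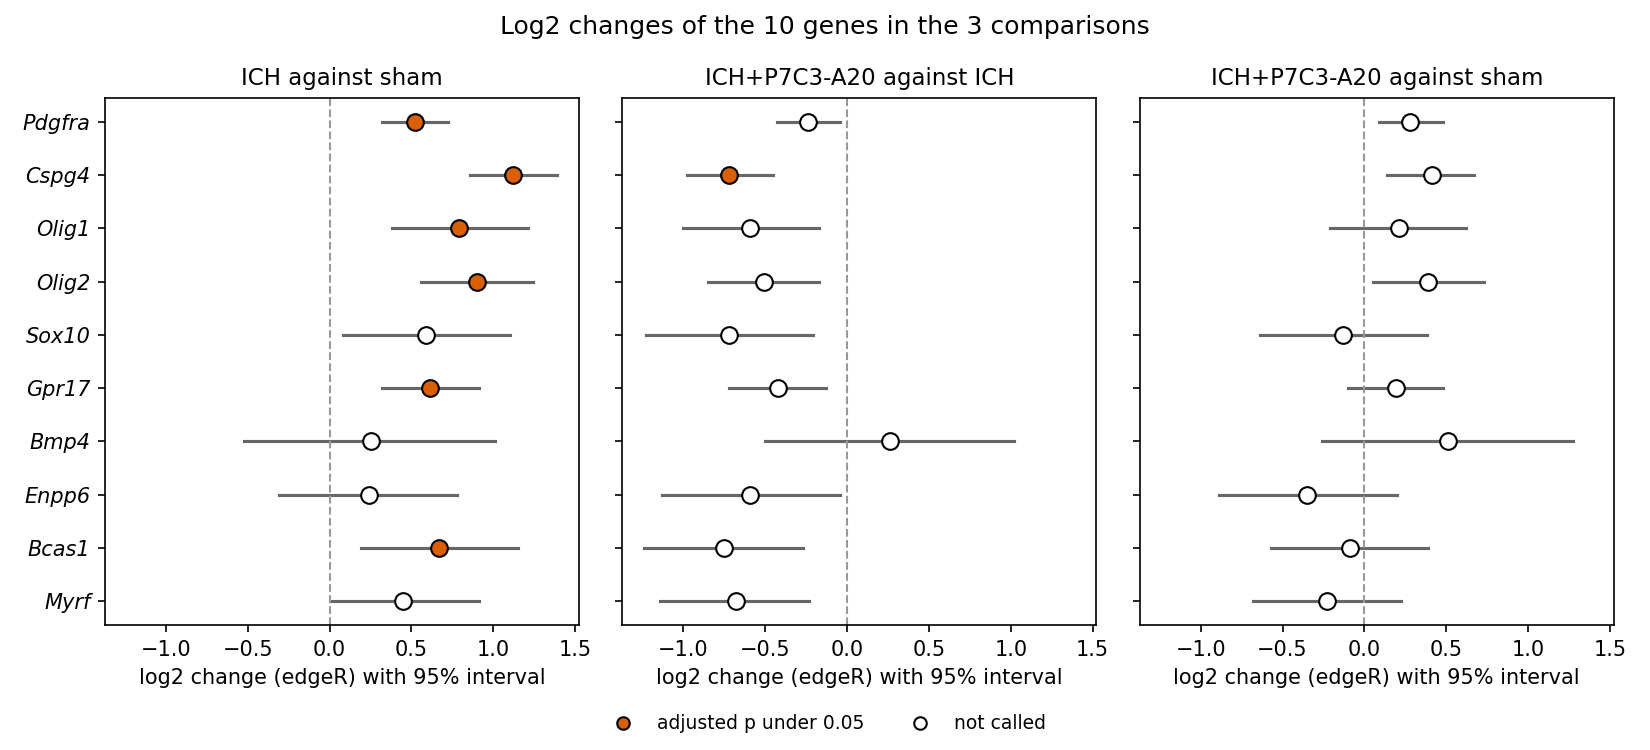
Log2 changes of the 10 genes (rows) with their 95% intervals from edgeR, in 3 panels, for ICH against sham (left), ICH+P7C3-A20 against ICH (middle) and the treated brains against sham (right). Filled points passed an adjusted p under 0.05: 6 in the left panel, 1 in the middle and none on the right.

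ICH+P7C3-A20 was compared with ICH to ask how the compound altered the haemorrhagic brain, and it shares the ICH libraries with the comparison above. Of the 10 genes 1 fell, Cspg4, and the other 9 did not pass the edgeR test. Over all tested genes 8.74% were called, 2.69% higher and 6.05% lower. All ICH+P7C3-A20 libraries lay below all ICH libraries for 9 of the 10 genes, every one except Bmp4, as in 18.5% of all tested genes. The median log2 change of the 10 was -0.59, against -0.01 over all tested genes.

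Cspg4 averaged 26.4 ± 3.61 CPM in ICH+P7C3-A20 and 43.4 ± 2.72 CPM in ICH (SD, n = 3 each), 1.64-fold lower. Its log2 change was -0.72 ± 0.12 (edgeR adjusted p = 0.00828), and the call held with each of these libraries left out in turn, at edgeR adjusted p-values up to 0.0448. It was lost in limma on log2(FPKM + 1) without a filter (-0.54, adjusted p = 0.0566). Pdgfra, the other precursor surface gene, averaged 65.7 ± 3.95 CPM in ICH+P7C3-A20 and 77.4 ± 2.63 CPM in ICH. Its log2 change of -0.24 ± 0.09 (edgeR adjusted p = 0.132) had a 95% interval of -0.43 to -0.04.

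The lineage factors did not pass the edgeR test either. Olig2 averaged 40.6 ± 8.15 CPM in ICH+P7C3-A20 and 57.7 ± 0.939 CPM in ICH, a log2 change of -0.51 ± 0.15 (edgeR adjusted p = 0.0654). Olig1 averaged 142 ± 35.1 CPM in ICH+P7C3-A20 and 213 ± 18.8 CPM in ICH, a log2 change of -0.59 ± 0.19 (edgeR adjusted p = 0.0783). For Sox10 the means were 72.8 ± 16.9 CPM in ICH+P7C3-A20 and 119.8 ± 22.7 CPM in ICH, with a log2 change of -0.72 ± 0.23 (edgeR adjusted p = 0.0803), and edgeR called it lower when these 2 groups were fitted alone (adjusted p = 0.0461). The spread of Olig2 was wider among the treated brains than among the ICH brains.

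Among the differentiation genes, Bcas1 had the largest log2 change, -0.75 ± 0.22 (edgeR adjusted p = 0.0572), with 259 ± 86.3 CPM in ICH+P7C3-A20 and 436 ± 38.9 CPM in ICH. Myrf averaged 95.5 ± 26.2 CPM in ICH+P7C3-A20 and 154 ± 22.3 CPM in ICH, a log2 change of -0.68 ± 0.21 (edgeR adjusted p = 0.0651). Gpr17 had a log2 change of -0.42 ± 0.13 (edgeR adjusted p = 0.0752) and Enpp6 of -0.59 ± 0.25 (edgeR adjusted p = 0.175). Bmp4 went the other way in value, at 0.26 ± 0.34 (edgeR adjusted p = 0.720; 95% interval -0.50 to 1.02).

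The count of calls depended on the test. DESeq2 called 7 of the 10 lower in ICH+P7C3-A20, adding Olig1, Olig2, Sox10, Gpr17, Bcas1 and Myrf. Of the 18068 genes with an adjusted p it called 19.5% in either direction, 2177 genes lower and 1355 higher. At an unadjusted p under 0.05 in edgeR, 9 of the 10 were lower, against 13.7% of all tested genes.

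ICH+P7C3-A20 1 stood apart from the other treated libraries. Mature myelin genes stood at -1.02 on the log2 scale from the sham mean in it, and at 0.06 and -0.02 in ICH+P7C3-A20 2 and 3. Cortical neuron markers stood at 1.70 in it and at 0.85 and 1.04 in the others. The sham libraries also spread widely on this list, at -0.15, -0.62 and 0.77 in sham 1, 2 and 3. Without ICH+P7C3-A20 1, the log2 change in ICH+P7C3-A20 over ICH was -0.31 for Enpp6, -0.40 for Olig1, -0.35 for Olig2, -0.50 for Bcas1 and -0.48 for Myrf. These changes were smaller in size than with all libraries. Cspg4 was at -0.61 without it and still called (edgeR adjusted p = 0.0213). The part of tissue composition in these values was not tested. Of the uncalled genes, Olig2 passed without ICH+P7C3-A20 2 (log2 change -0.62, edgeR adjusted p = 0.0449) and Bcas1 without ICH+P7C3-A20 3 (log2 change -0.93, edgeR adjusted p = 0.0496).

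**Figure D3:**
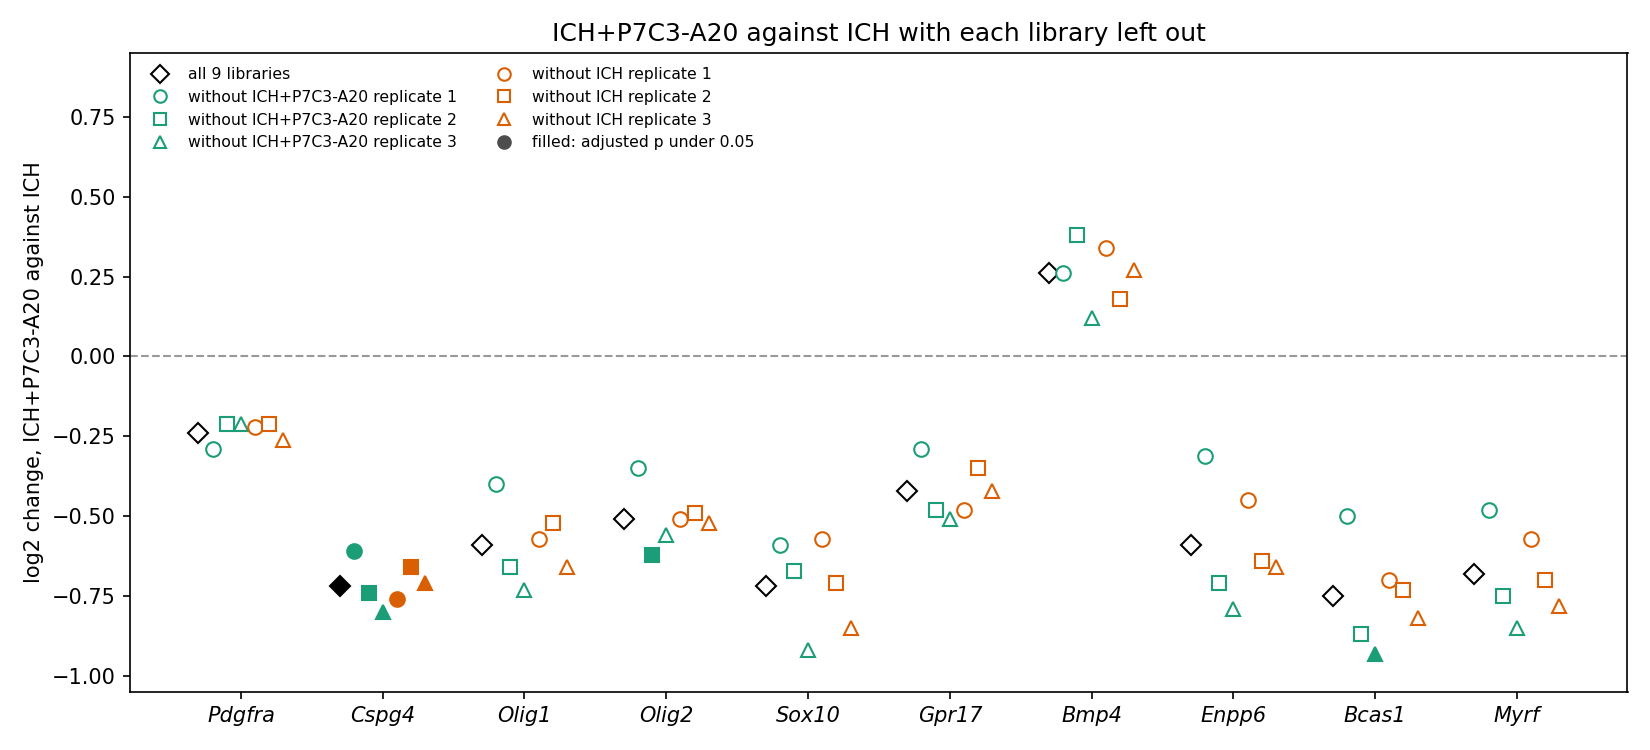
Log2 change of each of the 10 genes (columns) in ICH+P7C3-A20 against ICH, with all 9 libraries (diamonds) and with each ICH+P7C3-A20 or ICH library left out, filled where the edgeR adjusted p was under 0.05. Cspg4 was filled in every fit, between -0.61 and -0.80, and Bmp4 was the only gene above 0 in every fit.

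ICH+P7C3-A20 was compared with sham to ask which differences remained after treatment, sharing its sham libraries with the first comparison and its treated libraries with the second. None of the 10 genes was called by edgeR, and DESeq2 called 1, Cspg4, as higher. At an unadjusted p under 0.05 in edgeR 3 of the 10 differed, Pdgfra, Cspg4 and Olig2, as did 18.2% of all tested genes in either direction. Over all tested genes edgeR called 5.32%, 4.58% higher and 0.744% lower. DESeq2 called 7.12% of the genes to which it gave an adjusted p higher.

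The precursor surface genes lay above sham in value. Every ICH+P7C3-A20 library was above every sham library for Cspg4 and Pdgfra, as in 12.6% of all tested genes. Cspg4 had a log2 change of 0.41 ± 0.12 (edgeR adjusted p = 0.0844) and Pdgfra of 0.28 ± 0.09 (edgeR adjusted p = 0.109). For Olig2 it was 0.39 ± 0.15 (edgeR adjusted p = 0.201), with ICH+P7C3-A20 1 inside the sham range. Without ICH+P7C3-A20 1, edgeR called Cspg4 (log2 change 0.51, adjusted p = 0.0226) and Olig2 (log2 change 0.55, adjusted p = 0.0280) higher than in sham.

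Enpp6, Myrf, Sox10 and Bcas1 lay below sham in value. Log2 changes in ICH+P7C3-A20 over sham were -0.35 for Enpp6, -0.23 for Myrf, -0.13 for Sox10 and -0.09 for Bcas1, with 95% intervals of -0.89 to 0.20, -0.68 to 0.22, -0.64 to 0.38 and -0.57 to 0.39. Without ICH+P7C3-A20 1 the changes were -0.07 for Enpp6, -0.02 for Myrf, 0.00 for Sox10 and 0.17 for Bcas1. Sox10 was at 0.11 without sham 2. Gpr17 and Olig1 were at 0.19 and 0.21, and Bmp4 at 0.51 with an interval of -0.26 to 1.27. None of these intervals excludes a change in either direction.

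Ratios between the genes within a library take out what all of them share, and are given here as descriptions without a test. The log2 ratio of Cspg4 to Pdgfra, in FPKM, was -1.90, -1.48 and -1.35 in ICH+P7C3-A20, -1.21, -1.03 and -1.02 in ICH, and -1.74, -1.68 and -1.65 in sham. The ICH libraries stood above both other groups, which overlapped. The ratio of Bmp4 to Sox10 was -3.42, -3.89 and -3.81 in ICH+P7C3-A20, -4.80, -4.90 and -4.37 in ICH, and -4.22, -4.23 and -4.88 in sham, so the treated libraries were the highest. In ratios of Pdgfra, Cspg4, Olig1, Olig2, Gpr17, Enpp6 and Bcas1 to Sox10, also made, no group stood apart from both others.

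The ratio of Pdgfra to Bcas1 sets a precursor marker against a premyelinating marker, and does not measure these stages alone. Pdgfra is also a gene of fibroblasts, and the mature myelin genes Hapln2 and Mbp were among the 3 nearest to Bcas1 in pattern. The ratio was -2.59, -3.65 and -3.73 in ICH+P7C3-A20, -3.98, -3.91 and -3.82 in ICH, and -3.56, -3.99 and -3.72 in sham. It was highest in ICH+P7C3-A20 1, where mature myelin genes stood at -1.02 from the sham mean. Olig2 to Olig1 kept within -2.29 to -1.93 in all 9 libraries and Myrf to Sox10 within -1.31 to -0.78, and in both the 3 groups overlapped.

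**Figure D4:**
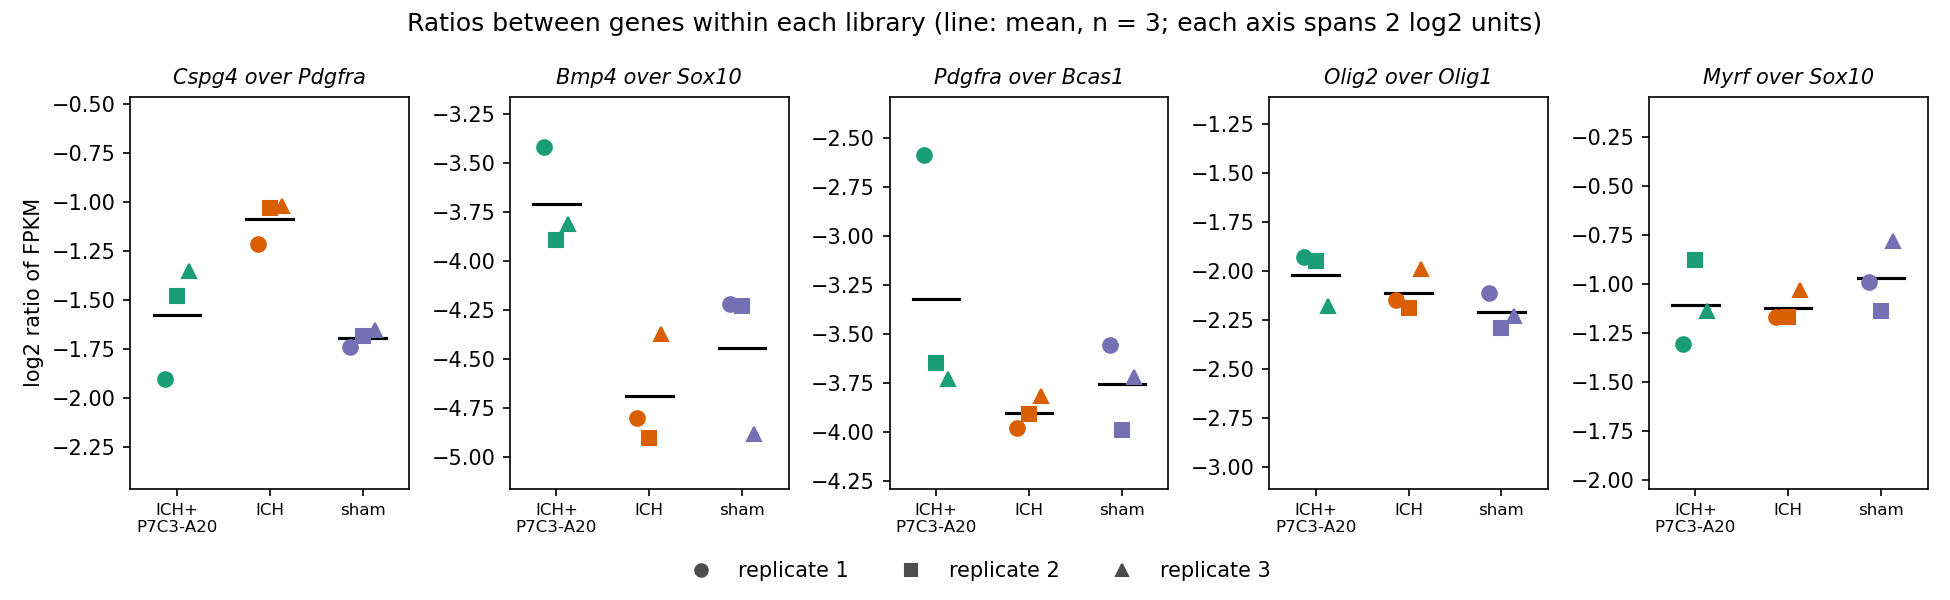
Log2 ratios of FPKM between 2 genes in each library, ICH+P7C3-A20, ICH and sham from left to right, with the mean of each group as a line (n = 3) and every axis spanning the same length. Cspg4 over Pdgfra is highest in ICH (mean -1.09), and Pdgfra over Bcas1 has ICH+P7C3-A20 1 at -2.59.

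The 10 genes were set beside other genes of the lineage. For this and the later lists, the shares of all tested genes called by edgeR are the reference. They were 15.6% higher and 10.4% lower in ICH over sham, and 2.69% and 6.05% in ICH+P7C3-A20 over ICH. Against sham, they were 4.58% and 0.744% in ICH+P7C3-A20. For counts at an unadjusted p under 0.05 in edgeR, 18.2% of all tested genes differed in ICH+P7C3-A20 over sham. In ICH+P7C3-A20 over ICH, 13.7% were lower at that limit. Of 15 further precursor genes, 4 rose in ICH over sham and 1 fell. The risers were Vcan, a matrix proteoglycan (log2 change 0.63 ± 0.13, edgeR adjusted p = 0.00588), the receptor phosphatase Ptprz1 (0.58 ± 0.13, edgeR adjusted p = 0.00917), and Ednrb and Matn4, named after their values were seen. Cacng4 fell, with a log2 change of -0.56 ± 0.16 (edgeR adjusted p = 0.0266). With any 1 ICH library left out 2 rose, and the fall of Cacng4 was lost without sham 1, sham 2 or any ICH library. Against ICH, in treated brains, the transcription factor Sox5 rose (0.51 ± 0.13, edgeR adjusted p = 0.0416), a call lost with any 1 ICH+P7C3-A20 or ICH library left out, and 14 did not pass. Against sham, none of the 15 was called by edgeR in treated brains, with 3 at an unadjusted p under 0.05, and Cacng4 was called lower without ICH+P7C3-A20 3.

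Of 16 further genes of committed and newly formed oligodendrocytes, 2 rose and 1 fell in ICH over sham. These were the calcium-release channel Itpr2 (0.54 ± 0.14, edgeR adjusted p = 0.0176), the small GTPase Rras2 (0.63 ± 0.20, edgeR adjusted p = 0.0383) and the sulphotransferase Ust (-0.76 ± 0.11, edgeR adjusted p = 0.000601). The shares that rose and fell were no larger than over all tested genes (15.6% higher, 10.4% lower). Without sham 1, sham 2 or ICH 1 the risers numbered 1, without ICH 2 or ICH 3 they numbered 0, and without sham 3 there were 2 that fell. Between ICH+P7C3-A20 and ICH edgeR called none of them, with 1 at an unadjusted p under 0.05. Against sham 1 fell in ICH+P7C3-A20, Ust (-0.49 ± 0.11, edgeR adjusted p = 0.0258), a call lost without sham 1, sham 2, ICH+P7C3-A20 2 or ICH+P7C3-A20 3.

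Of 14 mature myelin genes, 2 rose in ICH over sham and the same 2 fell in ICH+P7C3-A20 over ICH. Among all tested genes 15.6% rose in ICH over sham, a share not exceeded here, and 6.05% fell in ICH+P7C3-A20 over ICH. Cldn11, the tight-junction protein of myelin, averaged 249.9 ± 92.6 CPM in ICH+P7C3-A20, 483 ± 56.3 CPM in ICH and 255 ± 46.4 CPM in sham. Its log2 changes were -0.95 ± 0.26 in ICH+P7C3-A20 over ICH (edgeR adjusted p = 0.0453) and 0.92 ± 0.26 in ICH over sham (edgeR adjusted p = 0.0223). Hapln2, a link protein of the nodal matrix, had -0.82 ± 0.20 (edgeR adjusted p = 0.0345) and 0.70 ± 0.20 (edgeR adjusted p = 0.0282). In ICH over sham 0 rose without sham 1, sham 3, ICH 1 or ICH 3, and 1 without sham 2 or ICH 2. Against ICH, 0 fell in treated brains without any 1 ICH library, and 1 without ICH+P7C3-A20 1 or 3. The median log2 change of the 14 in ICH+P7C3-A20 over ICH was -0.54, near the -0.59 of the 10 genes. It was -0.18 for the 15 further precursor genes and -0.15 for the 16 committed and newly formed ones. All treated libraries lay below all ICH libraries for 8 of the 14 myelin genes, as in 18.5% of all tested genes. Between ICH+P7C3-A20 and sham edgeR called none of the 14, with 0 at an unadjusted p under 0.05.

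**Figure D5:**
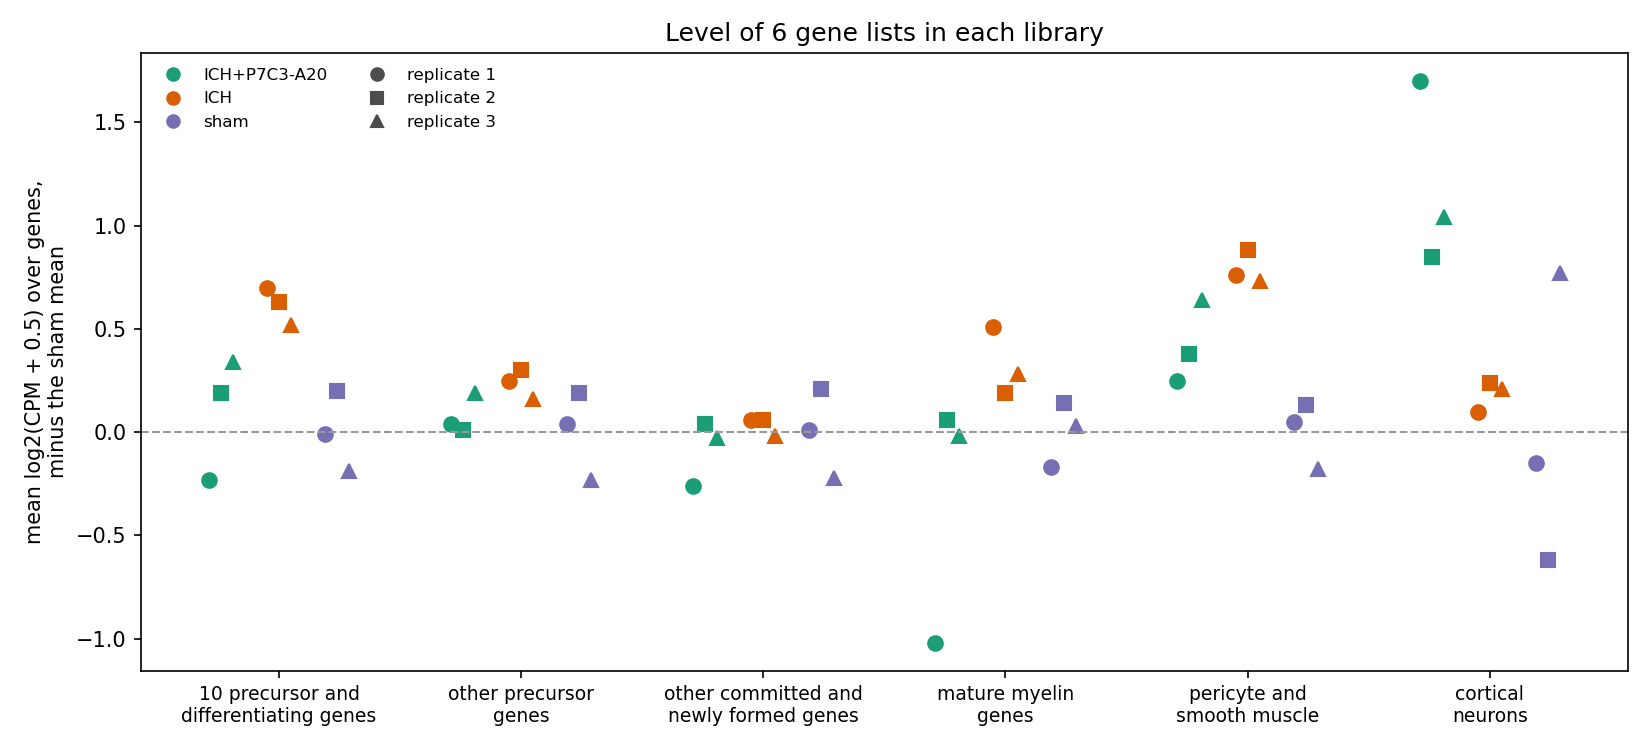
Mean log2(CPM + 0.5) over the genes of 6 lists in each library, less the sham mean, with ICH+P7C3-A20, ICH and sham from left to right within each list. The 10 genes stand at 0.52 to 0.70 in ICH, and ICH+P7C3-A20 1 lies at -1.02 for myelin and 1.70 for cortical neurons.

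Ligands and receptors around the 10 genes were counted in the same way. Of 5 PDGF genes other than Pdgfra, Pdgfb, the B-chain ligand (0.87 ± 0.13, edgeR adjusted p = 0.000864), and Pdgfrb, the receptor of pericytes (0.73 ± 0.11, edgeR adjusted p = 0.000598), rose in ICH over sham. In ICH+P7C3-A20 over ICH and over sham edgeR called none of the 5, with 2 at an unadjusted p under 0.05 in each, and Pdgfb was called higher than in sham without sham 3. Of 13 Notch genes, which restrain oligodendrocyte maturation, 6 rose and 2 fell in ICH over sham. Both that fell are Notch targets, named after their values were seen. Hes5 averaged 6.39 ± 1.20 CPM in ICH+P7C3-A20, 3.38 ± 0.834 CPM in ICH and 9.07 ± 3.39 CPM in sham. Its change in ICH over sham, -1.42 ± 0.30 (edgeR adjusted p = 0.00522), was the largest in size of the 13, and in ICH+P7C3-A20 over ICH it was at 0.92 ± 0.29 (edgeR adjusted p = 0.0793). The fall of Hey1 in ICH (-0.35 ± 0.10, edgeR adjusted p = 0.0283) was lost without sham 1, sham 3 or any 1 ICH library. The receptor Notch1 averaged 52.3 ± 2.37 CPM in ICH+P7C3-A20, 76.4 ± 5.33 CPM in ICH and 36.2 ± 2.14 CPM in sham. It was called in each comparison, at -0.55 ± 0.09 in ICH+P7C3-A20 over ICH (edgeR adjusted p = 0.00858), 1.08 ± 0.09 in ICH over sham (edgeR adjusted p = 2.4e-05) and 0.53 ± 0.09 in ICH+P7C3-A20 over sham (edgeR adjusted p = 0.00840). Notch1 was the only 1 of the 13 called against sham in treated brains. Against ICH it fell with 1 other, the Notch effector Rbpj (-0.39 ± 0.10, edgeR adjusted p = 0.0376), whose call was lost without any 1 ICH library, ICH+P7C3-A20 1 or ICH+P7C3-A20 2.

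Of 23 genes of BMP signalling, 3 rose and 3 fell in ICH over sham. The 6 called were a share near the 26.0% called over all tested genes. The BMP-induced Id1 (1.15 ± 0.27, edgeR adjusted p = 0.00920) and Id3 (1.07 ± 0.23, edgeR adjusted p = 0.00651) rose, and Id4 fell (-0.87 ± 0.14, edgeR adjusted p = 0.00132). The falls numbered 1 without sham 1 or any ICH library. In ICH+P7C3-A20 over ICH the secreted BMP antagonist Nog rose, at 5.49 ± 2.43 CPM in ICH+P7C3-A20 and 1.98 ± 0.222 CPM in ICH (log2 change 1.47 ± 0.33, edgeR adjusted p = 0.0238). That call was lost without any 1 ICH library or ICH+P7C3-A20 1. Against sham, treated brains had 1 riser, Id2 (0.73 ± 0.14, edgeR adjusted p = 0.0123), and 1 that fell, Id4 (-0.65 ± 0.14, edgeR adjusted p = 0.0247). Both calls were lost without sham 1 or ICH+P7C3-A20 3, without sham 3 there were 3 that rose, and without sham 2 there were 2 that fell.

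Cspg4 is also a gene of pericytes and Pdgfra of fibroblasts, and markers of both rose in ICH. Pdgfrb and Notch3, counted above, are also pericyte markers. Of 11 pericyte and smooth muscle markers 7 rose in ICH over sham and none fell, with the contractile gene Tagln at a log2 change of 3.08 ± 0.30 (edgeR adjusted p = 4.7e-05). Their summed level was 320.4 to 406 CPM in ICH+P7C3-A20, 463 to 518 CPM in ICH and 243 to 285 CPM in sham. In ICH+P7C3-A20 over ICH 1 fell, Tagln (-1.65 ± 0.28, edgeR adjusted p = 0.00856), and in ICH+P7C3-A20 over sham 1 rose, again Tagln (1.43 ± 0.28, edgeR adjusted p = 0.0159). The last call was lost without sham 1, sham 2, ICH+P7C3-A20 2 or ICH+P7C3-A20 3, and without ICH+P7C3-A20 1 the risers numbered 2.

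Of 10 fibroblast markers 6 rose in ICH over sham, and 2 without ICH 1 or ICH 3. The collagen gene Col3a1 had a log2 change of 2.40 ± 0.28 (edgeR adjusted p = 0.000146). The summed level was 74.1 to 116 CPM in ICH+P7C3-A20, 102 to 129.8 CPM in ICH and 27.5 to 66.1 CPM in sham, so the ICH+P7C3-A20 and ICH ranges overlapped. In treated brains Col3a1 was the 1 marker that fell against ICH, a call lost without any 1 ICH library, ICH+P7C3-A20 1 or ICH+P7C3-A20 2, and the 1 that rose against sham, a call lost without sham 1 or ICH+P7C3-A20 3. The marker Dpep1 had a count of 0 in every sham library. Of 8 endothelial markers 7 rose in ICH over sham, with summed levels of 296 to 359 CPM in ICH+P7C3-A20, 403 to 446 CPM in ICH and 216 to 251 CPM in sham. In treated brains 3 fell against ICH (0 without ICH 1 or ICH 2, 1 without ICH 3 or ICH+P7C3-A20 1), and 3 rose against sham (0 without sham 1 or ICH+P7C3-A20 3). The part of vascular cells in the changes of Cspg4 and Pdgfra was not tested.

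Genes of the cell cycle had larger changes. All 10 listed rose in ICH over sham (median log2 change 3.66) and fell in ICH+P7C3-A20 over ICH (median -1.52), where 6 fell without ICH 1 or ICH 3. Their summed level was 98.2 to 197 CPM in ICH+P7C3-A20, 402 to 439 CPM in ICH and 53.0 to 69.2 CPM in sham. The proliferation marker Mki67 averaged 36.2 ± 15.5 CPM in ICH+P7C3-A20, 102 ± 4.48 CPM in ICH and 7.67 ± 1.72 CPM in sham, and 8 of the 10 listed rose in ICH+P7C3-A20 over sham. Microglia and macrophage markers, from other cells that divide after injury, also rose in ICH over sham in 8 of 8, with summed levels of 394 to 652 CPM in ICH+P7C3-A20, 934 to 1134 CPM in ICH and 207 to 230.1 CPM in sham. In treated brains 6 fell against ICH (3 without ICH 2) and 8 rose against sham (5 without sham 2, 4 without ICH+P7C3-A20 3). Which cells carried the cell cycle transcripts was not tested.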

How the data were processed

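Polyadenylated RNA of 9 brains was made into stranded libraries, per the labels' protocols. Cutadapt 1.9, HISAT2 2.0.4 and StringTie 1.3.4d were used, per the submitters' processing notes, and no source used here gives the genome build or the count step. The authors deposited FPKM values and whole-number estimated counts for 35112 genes, per the file headers. The 10 genes have the positions of GENCODE M21 (GRCm38).

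In R 4.3.3, filterByExpr of edgeR 4.0.16 (a count of 10, 15 in total) left 21900 genes. After TMM scaling, 1 robust quasi-likelihood fit covered the 3 groups and all 9 libraries. Tests were two-sided, with Benjamini-Hochberg adjustment over all tested genes and calls at an adjusted p under 0.05. The fit was tested on simulated counts. Alternatives were other scalings, no filter, DESeq2 1.42.0, limma 3.58.1 on log2(FPKM + 1) or log2(FPKM + 0.1), a replicate block, the compared groups alone and each library left out.

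The 10 genes and the lists of other oligodendrocyte stages, of PDGF, BMP, Notch and cell cycle genes and of other brain cell types were chosen with earlier results of these data known. Named genes were the 10, from each list the 3 or fewer genes of lowest p, and the 3 genes nearest to each of the 10 in pattern, of which 1 is not reported here. Animals were separate, so the tests set group differences against the spread between mice, estimated over the 3 groups together.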

Additional observations from a re-analysis of the deposited data

How the results depend on the processing

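Of 150 recomputed changes of the 10 genes, per comparison, 135 kept direction and call in ICH against sham, 139 between treated and ICH brains and 144 between treated brains and sham. Counts of calls moved by over 1.5 times as follows, and the cause was not tested. In ICH against sham, limma on log2(FPKM + 1) without a filter called 3208 genes and 3 of the 10, against 5701 and 6. In ICH+P7C3-A20 against ICH, where edgeR called 1914 genes and 1 of the 10, DESeq2 called 3532 and 7, limma with a pseudocount of 0.1 called 1143 genes, and limma without a filter called 961 and 0. The compared groups alone gave 2 of the 10. In ICH+P7C3-A20 against sham, where edgeR called 1165 and 0, DESeq2 called 2109 and 1, limma 332, 521 with a pseudocount of 0.1 and 135 without a filter, and the compared groups alone 435. Leaving out 1 library gave 4075 to 5561 genes and 5 to 6 of the 10 in ICH against sham, 571 to 1954 and 1 to 2 between treated and ICH brains, and 538 to 1434 and 0 to 2 in ICH+P7C3-A20 against sham.

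The labels do not say that replicate numbers pair the libraries. Same-numbered deviations correlated at 0.09, 0.06 and 0.20 between ICH and sham, and at 0.07, -0.23 and -0.22 between ICH+P7C3-A20 and ICH. Between ICH+P7C3-A20 and sham they correlated at 0.11, -0.05 and -0.03. Not every library correlated best with its own number. With 3 libraries per group, these values cannot show whether a number marks a shared litter or day. With the replicate block 2 of the 10 were called between treated and ICH brains (Cspg4 and Gpr17), 6 between ICH and sham, and 0 between treated brains and sham. Log2 changes reversed for uncalled genes only, when a library was left out: Bmp4 in ICH against sham (-0.08 to 0.60; below 0 without sham 3), and in treated brains against sham Sox10 (-0.33 to 0.11; 0.11 without sham 2, 0.00 without ICH+P7C3-A20 1) and Bcas1 (-0.26 to 0.17; above 0 without ICH+P7C3-A20 1). The share of calls that were higher was 60.0%, 30.8% and 86.0% in the 3 comparisons, and up to 78.0%, as low as 8.84% and up to 97.0% by limma, and 73.9% by DESeq2 in the last. No scaling moved the median of all genes by over 0.1.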

Other observations

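The genes whose levels ran closest to each of the 10 were sought among 12206 genes with a mean of at least 1 FPKM, by the root mean square difference of centred log2 CPM over the 9 libraries. Cspg4 was nearest to Ptbp3 (0.05), Nfkb1 (0.08) and Wipf1 (0.08), and Pdgfra to Ssh2 (0.06), Colgalt1 (0.06) and Pitrm1 (0.07). Olig1 was nearest to Snx33, Cers2 and Abhd4, each at 0.09, and Olig2 to Hadha (0.07), Ghdc (0.08) and Tm6sf1 (0.09). Sox10 was nearest to Cryab (0.09), Folh1 (0.12) and Nkx2-2 (0.13), and Gpr17 to Zfp41 (0.05), Acss1 (0.07) and Klhl5 (0.07). Enpp6 had Tmem88b (0.05) and Prr18 (0.06) among its nearest. Bcas1 was nearest to Sass6 (0.09), Hapln2 (0.09) and Mbp (0.10), and Myrf to Ttyh2 (0.07), Gatm (0.08) and Tmem63a (0.09). Bmp4 had the farthest neighbours, Serpinf1 (0.15), Nr2f1 (0.19) and C1ql1 (0.20). Mbp and Hapln2 are genes of mature myelin.

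Neuron and astrocyte markers also differed between the groups. Of 8 neuron markers, which hold genes of inhibitory and excitatory neurons beside general ones, 7 fell in ICH over sham (3 without sham 1 or any ICH library), with summed levels of 3649 to 6186 CPM in ICH+P7C3-A20, 2666 to 3034 CPM in ICH and 4264 to 4873 CPM in sham. The lowest p-values were those of Gad1 (-0.81 ± 0.13, edgeR adjusted p = 0.00120) and Gad2 (-0.84 ± 0.20, edgeR adjusted p = 0.0110), which make GABA, and of the neuronal nuclear protein Rbfox3 (-0.65 ± 0.15, edgeR adjusted p = 0.0109). In ICH+P7C3-A20 over ICH 2 of the 8 rose, Map2 (0.66 ± 0.15, edgeR adjusted p = 0.0253) and Rbfox3 (0.59 ± 0.15, edgeR adjusted p = 0.0407). The median log2 change of the 8 was 0.66, against -0.59 for the 10 oligodendrocyte lineage genes. That of the 14 mature myelin genes was -0.54, of the 8 endothelial markers -0.59 and of the 8 astrocyte markers -0.07. The risers numbered 0 without any 1 ICH library or ICH+P7C3-A20 1, 1 without ICH+P7C3-A20 3 and 4 without ICH+P7C3-A20 2. Against sham 1 fell in treated brains, Gad1 (-0.60 ± 0.13, edgeR adjusted p = 0.0243), a call lost without sham 1, sham 2, ICH+P7C3-A20 2 or ICH+P7C3-A20 3. Without sham 3, 2 fell and 1 rose, and without ICH+P7C3-A20 1, 2 fell.

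Of 8 cortical neuron markers, which share Slc17a7 with that list, 1 fell in ICH over sham and the same 1 rose in ICH+P7C3-A20 over ICH, Lamp5 (0.65 ± 0.15 in the treated brains, edgeR adjusted p = 0.0262). The fall was lost without sham 1, sham 3 or any ICH library, and without sham 3 there was 1 that rose. The rise of Lamp5 was lost with any 1 of the ICH+P7C3-A20 or ICH libraries left out. In ICH+P7C3-A20 over ICH the median log2 change of the 8 was 1.11. Their summed level was 1323 CPM in ICH+P7C3-A20 1, 493 and 574 CPM in ICH+P7C3-A20 2 and 3, 251 to 348 CPM in ICH and at most 479 CPM in sham. Against sham edgeR called none in treated brains, with 3 at an unadjusted p under 0.05, and 2 rose without sham 3.

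Of 8 astrocyte markers 5 rose in ICH over sham and none fell (1 without sham 3), with summed levels of 5043 to 5949 CPM in ICH+P7C3-A20, 5819.9 to 7002 CPM in ICH and 3244 to 3357 CPM in sham. In ICH+P7C3-A20 over ICH 3 fell (1 without ICH 2), among them Gfap, the filament of reactive astrocytes (-1.39 ± 0.25, edgeR adjusted p = 0.00974), and 1 rose, the glutamate transporter Slc1a2 (0.68 ± 0.15, edgeR adjusted p = 0.0228), a call lost without ICH 1, ICH 3, ICH+P7C3-A20 1 or ICH+P7C3-A20 3. Against sham 3 rose in treated brains, and 1 without sham 1, sham 2, ICH+P7C3-A20 2 or ICH+P7C3-A20 3. The part of these cell types in the changes of the 10 genes was not tested.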
